A study of Mus musculus with 30 samples.

Results

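The 10 genes described here encode ligands, receptors, an inhibitor and a secreted target of TGF-beta and activin signaling. They were chosen by name and, like the lists of other genes used below, with earlier results of these data known. All 10 were found among the 50833 genes with read counts, of which 20569 are protein-coding and autosomal. The members are the TGF-beta ligand genes *Tgfb1*, *Tgfb2* and *Tgfb3*, the activin subunit genes *Inhba* and *Inhbb*, the receptor genes *Tgfbr1*, *Tgfbr2* and *Tgfbr3*, the activin inhibitor gene *Fst* and the matrix gene *Tgfbi*. Their RNA was measured in mouse forelimb buds after a pulse of WNT inhibition. Pregnant females carrying wild-type Swiss Albino embryos received a single intraperitoneal injection at E10.5. It held either Wnt-C59 (C59, 10 µg per g body weight) or, in controls, DMSO in phosphate-buffered saline. C59 blocks the acyltransferase porcupine, without which cells do not release active WNT proteins. DMSO was common to both arms, whereas methylcellulose and Tween-20 are described for the C59 vehicle only. The arms thus differed in the vehicle as well as in C59. Forelimb buds were collected 1, 6, 12, 18 and 24 h later, with 3 libraries in each of the 10 groups, and each library came from 1 pair of forelimb buds. Because the drug was given to the mother and the whole bud was sequenced, the data do not locate a change to a cell type, and fewer cells of a type and less RNA per cell cannot be told apart.

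TGF-beta and activin ligands are secreted dimers that bring together type II and type I receptor kinases, and the activated type I receptor phosphorylates SMAD2 and SMAD3. TGF-beta is secreted in a latent complex bound to the matrix and has to be released from it, whereas activins are held back by follistatin, the product of *Fst*. In the limb bud the pathway is known for promoting the condensation of chondrogenic progenitors and the induction of tendon progenitors.

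The 30 libraries held between 18188636 and 38974885 counted reads, and p-values here measure the spread between single pairs of buds. *Axin2*, a direct target of WNT signaling, served as a check of the treatment. Its level, in CPM (library-size normalised read counts scaled by TMM factors), was 110 ± 6.82 (SD, n = 3) in DMSO and 28.2 ± 1.51 in C59 at 6 h, 111 ± 1.11 and 40.4 ± 2.87 at 12 h, and 110 ± 1.12 and 97.4 ± 7.90 at 18 h. The chondrogenic gene *Sox9* was higher in C59 at 6 h (log2 fold change 0.72) and 12 h (1.18), and *Col2a1* at 12 h (1.05), 18 h (0.78) and, by less, 6 h (0.24) and 24 h (0.33). Markers of limb mesenchyme (*Prrx1*, *Prrx2*, *Tbx5*, *Lmx1b*, *Twist1*, *Pdgfra*) summed to between 1858 and 2350 CPM in every library, and 4 hindlimb genes summed to between 11.5 and 26.5 CPM. Transcripts of Y-linked genes were listed at 0 FPKM in all DMSO libraries at 6 h and summed to between 19.8 and 33.2 FPKM in all C59 libraries at 6 h, so that sex and treatment cannot be told apart at that time. The sums at 1 h were 0.05 to 9.03 FPKM in DMSO and 21.3 to 38.2 FPKM in C59, and at 24 h 0.01 to 20.1 FPKM and 19.3 to 25.0 FPKM. At 12 h each arm held 1 library with such transcripts (38.6 and 18.8 FPKM). At 18 h the arms were not balanced, with such transcripts in DMSO replicate 2 (21.02 FPKM) and in C59 replicates 2 and 3 (19.7 and 24.15 FPKM). By a chi-square of their counts per degree of freedom, 5 libraries stood apart from both others of their group, DMSO replicate 1 at 1, 6 and 18 h, C59 replicate 3 at 18 h and C59 replicate 2 at 24 h. Pairs with one of them gave 22.9 to 46.6 and the other pairs 3.49 to 12.8. No member lost or gained a call in a comparison of C59 with DMSO at 1 h or 24 h without the one that stood apart at that time. Without DMSO replicate 1 at 18 h 0 members passed in edgeR at that time, instead of 2, and without C59 replicate 3 at 18 h 3 passed.

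In normal development nearly the whole set rose. Between 1 h and 24 h all 10 members passed the test in the DMSO controls (edgeR quasi-likelihood test, adjusted p below 0.05 after Benjamini-Hochberg adjustment over all genes tested), 9 of them higher and 1 lower at 24 h. Of all 13580 genes tested, 30.2% were higher and 29.2% lower. Beyond a log2 fold change of 1, which 12.0% of all genes passed, were 7 members. *Inhba* gained most (log2 fold change 5.92 ± 0.18, SE), followed by *Fst* (3.87 ± 0.16) and *Inhbb* (2.12 ± 0.36). *Tgfbi* (1.34 ± 0.04), *Tgfb3* (1.29 ± 0.07), *Tgfbr2* (1.13 ± 0.06) and *Tgfb2* (1.03 ± 0.05) each more than doubled. *Tgfbr3* rose by less (0.57 ± 0.08), and *Tgfbr1* was the member that fell (-0.16 ± 0.05, edgeR adjusted p = 0.00792). That call was lost in 3 of 16 other analyses, among them limma on FPKM (adjusted p = 0.135). The gain of *Tgfb1* was small (0.20 ± 0.08, edgeR adjusted p = 0.0485) and its call was lost in 11 of 16 other analyses, for example in DESeq2 and without DMSO replicate 1 at 1 h (edgeR adjusted p = 0.0947).

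Levels were compared between genes per transcript length, in FPKM as deposited. In DMSO at 1 h the order of mean FPKM (for *Tgfbi* the range) was *Tgfbr1* (43.0 ± 1.72, SD, n = 3), *Tgfbi* (14.6 to 15.9), *Tgfb2* (13.1 ± 0.800), *Tgfb1* (6.16 ± 0.114), *Tgfbr2* (6.02 ± 0.407), *Tgfb3* (5.28 ± 0.434), *Tgfbr3* (2.93 ± 0.292) and *Fst* (0.403 ± 0.0718). The 2 activin subunits came last, *Inhbb* at 0.0541 ± 0.0137 FPKM and *Inhba* at 0.0501 ± 0.0260 FPKM, and did not differ beyond their spread, nor did *Tgfb1* and *Tgfbr2*. By 24 h the FPKM of *Tgfbi* (40.5 ± 0.573) overlapped that of *Tgfbr1* (40.7 ± 0.236), and *Tgfb2* stood at 29.1 ± 0.511. At that time *Tgfbr2* (13.7 ± 0.335) overlapped *Tgfb3* (13.3 ± 0.539), and *Tgfb1* (7.40 ± 0.584) overlapped *Fst* (6.81 ± 1.00). *Inhba* had reached 2.57 ± 0.201 FPKM and *Inhbb* 0.251 ± 0.0239 FPKM. The beta A subunit gene thus went from a level like that of the beta B gene to one with no overlap above it.

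**Figure D1:**
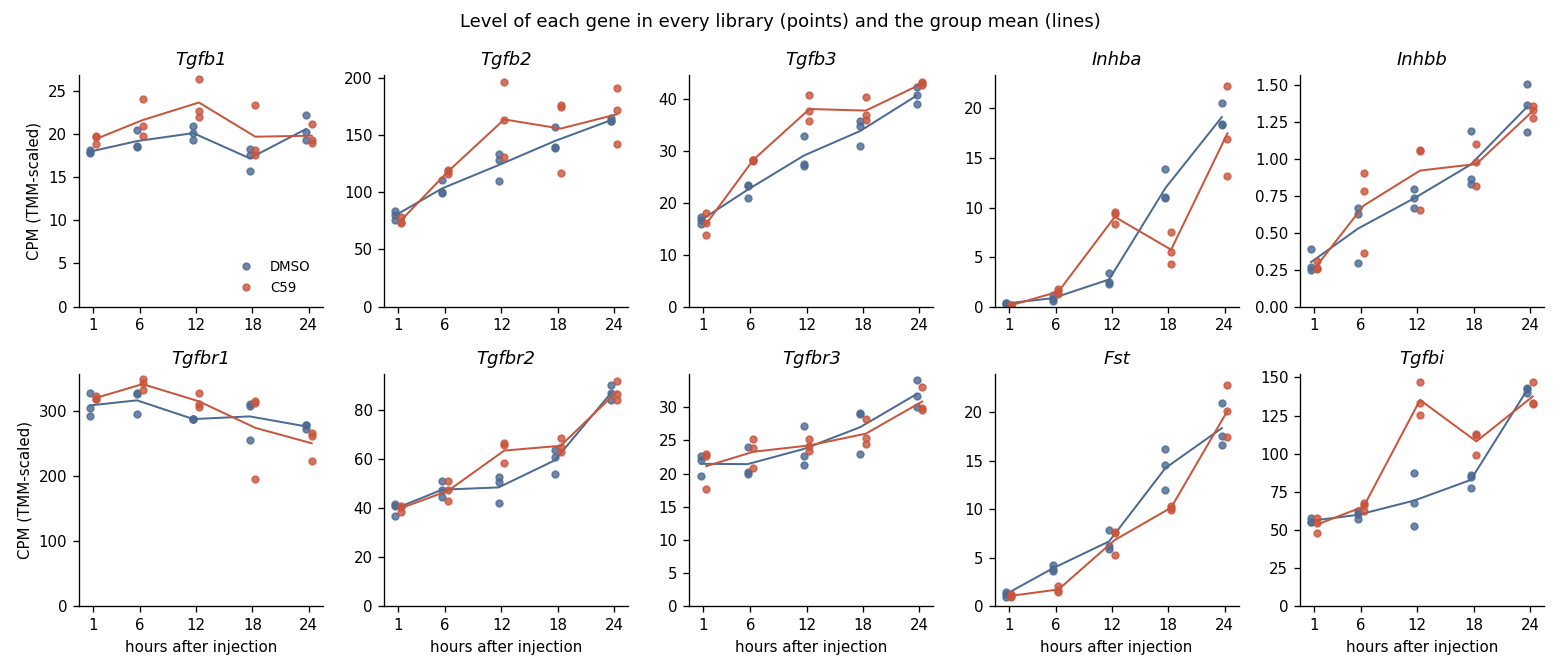
Level of each of the 10 members against hours after injection, in CPM scaled by TMM factors, with points for single libraries (3 per group), lines through group means, blue for DMSO and red for C59. At 12 h *Inhba*, *Tgfbi*, *Tgfb3*, *Tgfbr2*, *Tgfb1* and *Tgfbr1* lie above the controls in all 3 C59 libraries. At 6 h *Fst* lies below them in all 3, and *Inhba*, *Tgfbi*, *Tgfb2*, *Tgfb3* and *Tgfbr1* lie above. At 18 h *Inhba* and *Fst* lie below the controls in all 3, and *Tgfbi* and *Tgfb3* lie above.

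The response of the members to C59 changed with time. No member passed the test at 1 h. At 6 h *Fst* was lower and 2 TGF-beta ligand genes were slightly higher. By 12 h 6 members were higher and 0 lower. At 18 h *Inhba* was lower and *Tgfbi* higher, and no member passed at 24 h. In the first comparison 8 members were tested, *Inhba* and *Inhbb* having too few reads, and 0 of 8 passed in edgeR, also in DESeq2 and in limma on FPKM, with 0 at an unadjusted p under 0.05. Of all genes 1.14% were higher, 1.61% lower and 0.283% beyond a log2 fold change of 1 at that time. At 6 h 3 of 10 members passed, 2 higher (8.20% of all genes) and 1 lower (11.4%), and *Fst* alone was beyond a log2 fold change of 1 (1.17%). At 12 h 6 of 10 members were higher and 0 lower, beside 22.0% and 25.5% of all 13324 genes, and *Inhba* alone was beyond a log2 fold change of 1 (4.95%). Under upper-quartile scaling 61.4% of the genes called at 12 h were higher, against 46.4% with TMM factors, and at 6 h 52.0% against 41.9%, while every member that passed kept its direction under either scaling. At 18 h 1 of 10 members was higher (3.46% of all genes) and 1 lower (3.62%), and the lower one, *Inhba*, was beyond a log2 fold change of 1 (1.29%). At 24 h 0 of 10 members passed in edgeR, in DESeq2 or in limma, with 0 at an unadjusted p under 0.05, against 2.88% of all genes higher, 3.56% lower and 0.819% beyond a log2 fold change of 1. The median log2 fold change of the members was 0.14 at 6 h, 0.36 at 12 h and 0.08 at 18 h, where the median of all genes tested was 0.01, 0.02 and 0.00.

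**Figure D2:**
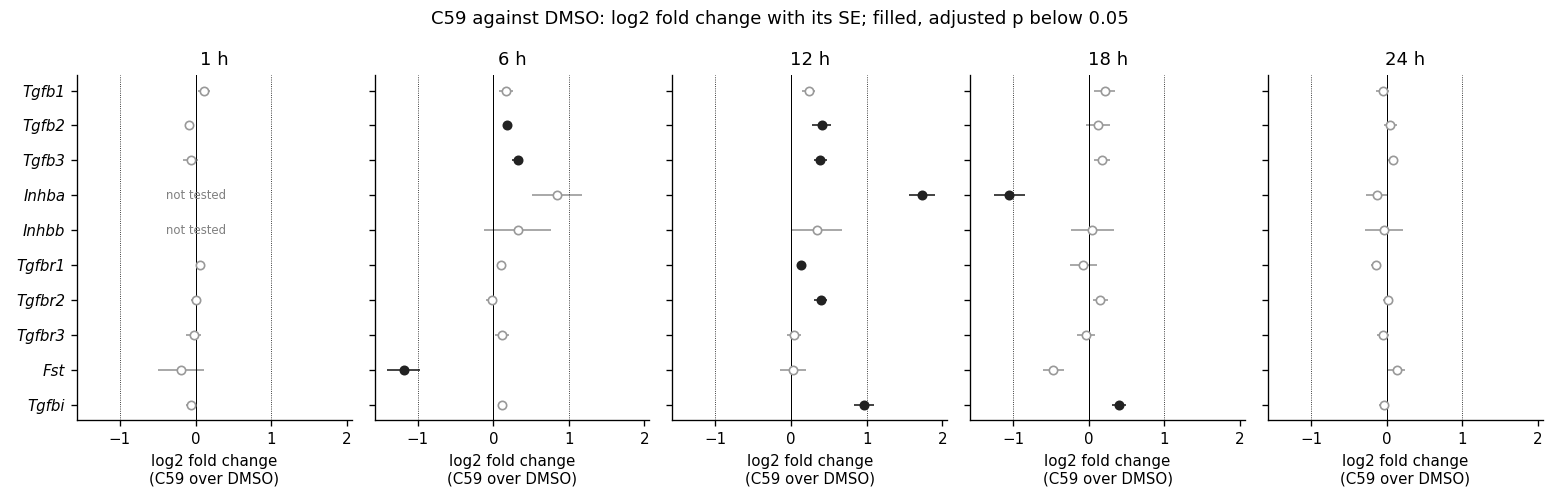
Log2 fold change of C59 over DMSO for each member at 1, 6, 12, 18 and 24 h, with its SE as a horizontal bar, where filled points passed the edgeR test and dotted lines mark a log2 fold change of 1 in either direction. The filled points number 0, 3, 6, 2 and 0 from 1 h to 24 h, and *Inhba* lies beyond the right line at 12 h and beyond the left line at 18 h.

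*Inhba* (chr13:16011851-16031621, plus strand, mm10) encodes the beta A subunit of activin A and inhibin A. Its promoter is shown because this member had the largest response, beside that of *Inhbb*, the gene of the beta B subunit, which passed the test at no time after C59. The 250 bases before each annotated start are given 5′ to 3′ on the strand of the gene, from RefSeq on GRCm38, with matches to the core of a TCF/LEF binding motif in capitals.
Inhba, chr13:16011601-16011850, plus strand: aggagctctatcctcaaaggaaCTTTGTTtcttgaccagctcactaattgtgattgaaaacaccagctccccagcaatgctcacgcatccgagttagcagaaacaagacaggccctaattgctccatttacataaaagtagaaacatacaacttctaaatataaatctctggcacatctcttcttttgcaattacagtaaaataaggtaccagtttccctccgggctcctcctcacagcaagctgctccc
Inhbb, chr1:119422249-119422498, minus strand: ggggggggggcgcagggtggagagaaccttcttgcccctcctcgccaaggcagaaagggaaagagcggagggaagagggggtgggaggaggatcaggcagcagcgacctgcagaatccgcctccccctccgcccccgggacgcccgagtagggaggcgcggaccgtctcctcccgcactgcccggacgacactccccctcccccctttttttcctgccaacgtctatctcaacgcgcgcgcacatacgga
The motif was searched as CTTTGAA or CTTTGAT or CTTTGTA or CTTTGTT on both strands. It occurred once in *Inhba*, starting 228 bases before the start of the gene, and not in *Inhbb*. G and C made up 43.2% of the *Inhba* stretch and 68.0% of the *Inhbb* stretch. Of 7 members matched in the promoter table, *Inhba*, *Tgfb2* (67 bases before the start) and *Tgfbr1* (30 bases before one of its starts) held a match, and 14.8% of all 32851 promoters did. CAGACA, a sequence that SMAD proteins bind, was searched likewise and occurred in *Tgfb2* and *Tgfbr1*, beside 17.1% of all promoters. The AP-1 sequences TGAGTCA and TGACTCA occurred in none of the 7, beside 4.46% of all promoters.

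*Inhba* started close to the limit of detection. At 1 h its read counts were 5, 8 and 9 in DMSO and 3, 4 and 2 in C59, and at 6 h 14, 23 and 13 in DMSO and 40, 25 and 35 in C59. At 6 h every C59 library lay above every control, and the log2 fold change of 0.85 ± 0.33 missed the threshold (edgeR adjusted p = 0.0869). Without DMSO replicate 2 at 6 h it was 1.18 and passed (edgeR adjusted p = 0.0346), and without DMSO replicate 1 at 6 h it was 0.61 ± 0.37 (edgeR adjusted p = 0.305). At 12 h its level was 2.50, 3.40 and 2.32 CPM in DMSO and 8.34, 9.50 and 9.33 CPM in C59. All 3 C59 libraries lay more than 2 times above the highest control, and the log2 fold change was 1.73 ± 0.17 (edgeR adjusted p = 1.90e-05), or 3.32-fold. The call at 12 h was kept in all 16 other analyses, with log2 fold changes between 0.94 and 1.97, the lower value being on the log2(FPKM + 1) scale.

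The order was turned at 18 h. *Inhba* was then at 11.0, 13.9 and 11.0 CPM in DMSO and 5.47, 7.49 and 4.27 CPM in C59. Every C59 library lay below every control, and *Inhba* was lower by a log2 fold change of -1.05 ± 0.21 (edgeR adjusted p = 0.0197). The call was lost when any 1 DMSO library at 18 h was left out (edgeR adjusted p between 0.0649 and 0.0797), with log2 fold changes of -0.92 to -1.11, and kept without C59 replicate 3 (-0.89 ± 0.18, edgeR adjusted p = 0.0131), then within a log2 fold change of 1. Without DMSO replicate 1, which stood apart, it was -1.11 ± 0.24 (edgeR adjusted p = 0.0649). For *Inhba*, C59 replicate 3 was the lowest of its group in CPM and the highest in FPKM (1.17 against 0.658 and 0.970). The FPKM of the controls lay between 1.68 and 1.72. Between 12 h and 18 h the mean of *Inhba* went from 2.74 to 12.0 CPM in DMSO and from 9.06 to 5.74 CPM in C59. The effect of C59 changed between these times by -2.78 ± 0.28 on the log2 scale (edgeR adjusted p = 6.09e-05), a test that 8.49% of all genes passed and *Inhba* alone among the members. At 24 h its levels of 13.2, 16.9 and 22.3 CPM in C59 spanned those of 18.3 to 20.6 CPM in DMSO, and the log2 fold change was -0.13 with a 95% interval from -0.44 to 0.19.

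The genes whose group means followed *Inhba* most closely over the 10 groups were *Smarca2*, a chromatin remodeling ATPase (Pearson r = 0.990 of log2 CPM), *Ogn*, a matrix proteoglycan (r = 0.990), and *Sytl2*, a vesicle trafficking gene (r = 0.989), out of 10585 genes compared. The 10 points share their libraries and the rise of many genes over development, and the values are descriptive. Over the 30 single libraries r was 0.982, 0.982 and 0.976.

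*Inhbb* (chr1:119415465-119422248, minus strand) was the least abundant member per length by group mean from 6 h on, although in DMSO at 6 h its FPKM of 0.0527 to 0.124 overlapped that of *Inhba* (0.118 to 0.150). Its groups summed to between 17 and 96 reads, and its mean rose from 0.301 CPM in DMSO at 1 h to 1.35 CPM at 24 h. The log2 fold changes between C59 and DMSO from 6 h on were 0.33 ± 0.44, 0.34 ± 0.34, 0.05 ± 0.29 and -0.03 ± 0.25 in order of collection time, with overlapping groups each time. At 12 h the level was 0.799, 0.668 and 0.735 CPM in DMSO and 0.654, 1.05 and 1.06 CPM in C59, and the 95% interval of the log2 fold change ran from -0.41 to 1.08. These values are compatible with any change within that interval, including none.

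*Fst* (chr13:114452290-114458951, minus strand) encodes follistatin, which binds activins and keeps them from their receptors. It had the largest change of the members at 6 h. At 6 h its level was 3.86, 4.27 and 3.60 CPM in DMSO and 1.42, 2.11 and 1.67 CPM in C59, from 61 to 93 reads per DMSO library and 33 to 43 per C59 library. There was no overlap, and *Fst* was lower by a log2 fold change of -1.18 ± 0.22 (edgeR adjusted p = 0.00191), or 2.27-fold. The call was kept in all 15 other analyses, with log2 fold changes between -0.66 and -1.34, and -1.19 ± 0.26 without DMSO replicate 1 at 6 h (edgeR adjusted p = 0.00513). Sex and treatment cannot be told apart for this value, nor for any other at 6 h.

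By 12 h *Fst* had drawn level. The libraries held 6.24, 7.90 and 5.94 CPM in DMSO and 7.63, 5.34 and 7.54 CPM in C59, with a log2 fold change of 0.03 and a 95% interval from -0.36 to 0.42. The change of the effect from 6 h to 12 h was 1.21 ± 0.28 (edgeR adjusted p = 0.00605), a test passed by 18.1% of all genes and by 3 members. At 18 h *Fst* was at 16.2, 14.6 and 12.0 CPM in DMSO and 9.96, 10.4 and 10.2 CPM in C59. All C59 libraries lay below all controls, but the log2 fold change of -0.47 ± 0.14 missed the threshold (edgeR adjusted p = 0.0745). It passed in DESeq2 (adjusted p = 0.0421) and when all 30 libraries shared the estimate of the spread in edgeR (adjusted p = 0.0120). Without C59 replicate 3 it was -0.47 ± 0.14 (edgeR adjusted p = 0.0533), and without DMSO replicate 1 it was -0.37 ± 0.14 (edgeR adjusted p = 0.227). At 24 h the groups overlapped, with 16.6 to 20.9 CPM in DMSO and 17.5 to 22.8 CPM in C59.

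*Fst* was followed most closely by *Osr1*, a transcription factor of the irregular connective tissue lineage (r = 0.992 over the 10 group means), *Pfn2*, an actin-binding protein (r = 0.986), and *Edn3*, a secreted ligand of the endothelin receptor B (r = 0.986). Over the 30 libraries r was 0.985, 0.973 and 0.974. *Fst* and *Inhba* had both risen steeply in the controls.

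The ratio of the activin subunit to its inhibitor lay above every control in all C59 libraries at 6 h and 12 h. Per library, *Inhba* FPKM divided by *Fst* FPKM was 0.0743, 0.0795 and 0.116 in DMSO at 6 h and 0.466, 0.238 and 0.395 in C59. At 12 h the ratio was 0.128, 0.155 and 0.129 in DMSO and 0.540, 0.768 and 0.579 in C59. The ratio at 18 h was 0.248, 0.344 and 0.378 in DMSO and 0.170, 0.216 and 0.279 in C59, and the groups overlapped, as they did at 24 h. The summed FPKM of the 3 TGF-beta ligand genes was 34.1 to 40.4 in DMSO and 44.1 to 58.6 in C59 at 12 h, without overlap. A test over 3 against 3 libraries cannot give an exact two-sided permutation p below 0.10, and both are given as a description.

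**Figure D3:**
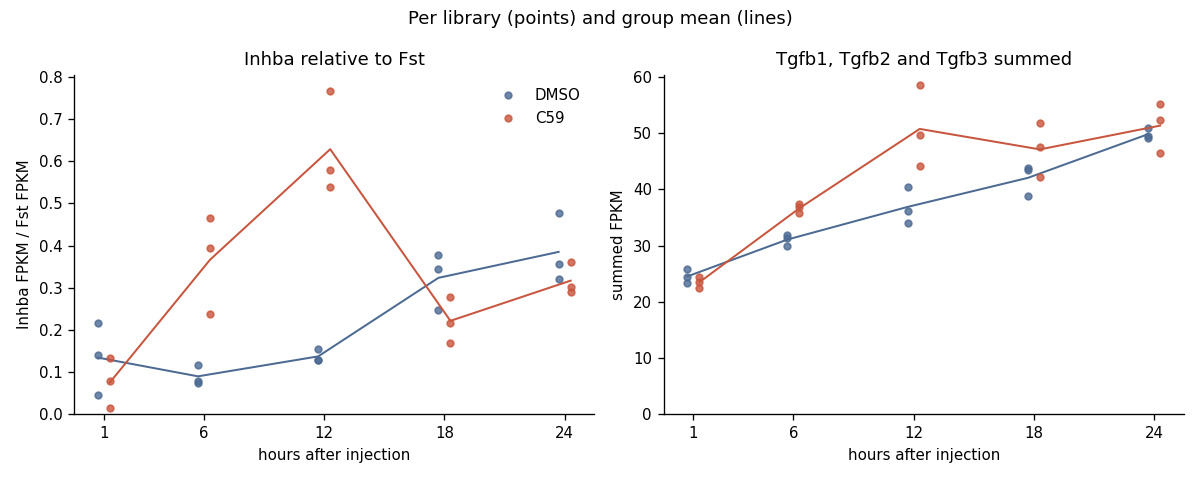
Left, *Inhba* FPKM divided by *Fst* FPKM against hours after injection, and right, the summed FPKM of *Tgfb1*, *Tgfb2* and *Tgfb3*, with points for single libraries, lines through group means, blue for DMSO and red for C59. The ratio in C59 lies above every control at 6 h and 12 h and overlaps the controls at 18 h and 24 h.

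The TGF-beta ligand genes *Tgfb2* and *Tgfb3* were higher in C59 at 6 h and 12 h by smaller amounts, and none of the 3 ligand genes passed at 1, 18 or 24 h. *Tgfb3* (chr12:86056745-86079041, minus strand) was at 23.4, 20.9 and 23.2 CPM in DMSO and 28.3, 28.3 and 28.2 CPM in C59 at 6 h. At 12 h it was at 27.1, 32.8 and 27.4 CPM in DMSO and 40.7, 35.9 and 37.7 CPM in C59. The groups did not overlap at either time, the log2 fold changes were 0.32 ± 0.07 and 0.39 ± 0.08 (edgeR adjusted p = 0.00625 and 0.00344), and both calls were kept in all other analyses. At 6 h the log2 fold change was 0.36 ± 0.08 without DMSO replicate 1 (edgeR adjusted p = 0.00787).

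*Tgfb2* (chr1:186622792-186705989, minus strand) was the most abundant of these ligand genes and supplied between 50.3% and 63.1% of their summed FPKM in every library. At 6 h it was at 99.3, 111 and 100 CPM in DMSO and 116, 119 and 119 CPM in C59, a log2 fold change of 0.19 ± 0.05 (edgeR adjusted p = 0.0218). That call was lost in 6 of 15 other analyses, among them each that left out 1 library other than DMSO replicate 2 (edgeR adjusted p between 0.0556 and 0.0930, and 0.0691 without DMSO replicate 1). At 12 h the libraries held 128, 134 and 110 CPM in DMSO and 197, 164 and 131 CPM in C59. The lowest C59 library overlapped the controls, the log2 fold change was 0.40 ± 0.12 (edgeR adjusted p = 0.0198), and the call was lost in DESeq2 (adjusted p = 0.0639) and without DMSO replicate 3 at 12 h (edgeR adjusted p = 0.0867). At 18 h C59 replicate 3 held 117 CPM against 175 and 176 CPM in its group and 139 to 157 CPM in the controls. Without that library *Tgfb2* passed at 18 h (log2 fold change 0.29 ± 0.07, edgeR adjusted p = 0.0290), and with it the log2 fold change was 0.12 ± 0.15.

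*Tgfb1* (chr7:25687002-25705077, plus strand) kept nearly the same level throughout, between 15.7 and 26.3 CPM in all 30 libraries. At 12 h it was at 20.1, 20.9 and 19.3 CPM in DMSO and 26.3, 22.6 and 22.0 CPM in C59. C59 and DMSO libraries did not overlap, and the log2 fold change of 0.23 ± 0.09 missed the threshold (edgeR adjusted p = 0.0508) but passed in 7 of 16 other analyses, for example with upper-quartile scaling (adjusted p = 0.0152). At 18 h its log2 fold change was 0.07 ± 0.10 without C59 replicate 3 and 0.22 ± 0.16 without DMSO replicate 1.

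Among the receptors, *Tgfbr2* (chr9:116084293-116175360, minus strand), the type II receptor that binds TGF-beta, was higher in C59 at 12 h. Its level was 50.6, 52.6 and 41.9 CPM in DMSO and 65.5, 66.3 and 58.2 CPM in C59. The groups did not overlap, and the log2 fold change was 0.39 ± 0.08 (edgeR adjusted p = 0.00346). At 6 h it had been -0.02 ± 0.07, and the change of the effect between these times was 0.40 ± 0.12 (edgeR adjusted p = 0.0301). *Tgfbr1* (chr4:47353222-47414931, plus strand), the type I receptor kinase, was at 288, 287 and 288 CPM in DMSO and 311, 328 and 307 CPM in C59 at 12 h. The groups did not overlap, the log2 fold change was 0.13 ± 0.04 (edgeR adjusted p = 0.0218), and the call was lost when all 30 libraries shared the spread and when any DMSO library at 12 h was left out (edgeR adjusted p between 0.0510 and 0.338). At 18 h C59 replicate 3 held 196 CPM of *Tgfbr1* against 315 and 312 CPM in its group, and the log2 fold change was -0.07 ± 0.17 with that library and 0.12 ± 0.09 without it. *Tgfbr3* (chr5:107106570-107289629, minus strand) encodes betaglycan, a coreceptor that presents TGF-beta ligands and binds inhibins. It passed the test at no time after C59, with log2 fold changes between -0.04 and 0.12, and was at 22.6, 27.2 and 21.3 CPM in DMSO and 23.5, 24.1 and 25.2 CPM in C59 at 12 h.

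*Tgfbi* (chr13:56609586-56639358, plus strand) encodes a secreted matrix protein named for its induction by TGF-beta. At 12 h its level was 67.9, 87.2 and 52.9 CPM in DMSO and 147, 125 and 134 CPM in C59, so that every C59 library lay above every control and close to the 140 to 143 CPM of the controls at 24 h. The log2 fold change was 0.96 ± 0.13 (edgeR adjusted p = 0.000208) and was kept in all 16 other analyses. At 6 h it had been 0.12 ± 0.06, and the change of the effect was 0.84 ± 0.17 (edgeR adjusted p = 0.00236). At 18 h *Tgfbi* was at 86.1, 84.7 and 77.6 CPM in DMSO and 99.1, 113 and 113 CPM in C59. The groups did not overlap, with a log2 fold change of 0.40 ± 0.09 (edgeR adjusted p = 0.0379), and the call was lost in 8 of 16 other analyses, among them limma on FPKM (adjusted p = 0.0602) and each that left out 1 DMSO library at 18 h (edgeR adjusted p between 0.0994 and 0.194) or C59 replicate 2 (0.135). Without DMSO replicate 1 it was 0.43 ± 0.11 (edgeR adjusted p = 0.0994), and without C59 replicate 3 it passed at 0.37 ± 0.08 (edgeR adjusted p = 0.0159). From 18 h to 24 h the effect changed by -0.45 ± 0.11 (edgeR adjusted p = 0.0217), a test passed by 6.96% of all genes and by *Tgfbi* alone among the members, and by none without C59 replicate 2 at 24 h (*Tgfbi* -0.42 ± 0.12, edgeR adjusted p = 0.0696).

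Several cell type marker lists moved with the treatment at 12 h, when most members were higher. Some also moved at 1 h and 24 h, when no member passed. Of all genes tested, 1.14% were higher and 1.61% lower at 1 h, 8.20% and 11.4% at 6 h, and 22.0% and 25.5% at 12 h. At 18 h these shares were 3.46% and 3.62%, and at 24 h 2.88% and 3.56%. At 12 h the summed level of 8 chondrogenic markers lay between 1053 and 1118 CPM in DMSO and between 2006 and 2797 CPM in C59, with 7 of 8 genes higher. That of 8 endothelial markers went from 345 to 377 CPM in DMSO to 431 to 477 CPM in C59 (4 of 8 higher), and that of 8 ectoderm and ridge markers from 283 to 310 CPM to 365 to 489 CPM (6 of 8 higher, *Fgf8* lower). Macrophage markers summed to 27.2 to 32.1 CPM in DMSO and 44.3 to 46.2 CPM in C59 (4 of 8 higher), neural crest and Schwann cell markers to 37.1 to 52.1 CPM and 85.3 to 114 CPM (3 of 4 tested higher), and platelet markers to 19.0 to 22.2 CPM and 27.5 to 34.4 CPM (2 of 4 higher). Of the 6 mesenchyme markers 2 were higher and 4 lower, and their sum fell from between 2235 and 2282 CPM to between 1892 and 2066 CPM. Of the 6 muscle progenitor markers 2 were higher and 4 lower, with overlapping sums, and 1 of 7 erythroid markers was higher. At 18 h chondrogenic markers summed to 1211 to 1409 CPM in DMSO and 1919 to 2269 CPM in C59 (5 of 8 higher), and macrophage markers to 39.1 to 43.0 CPM and 55.3 to 59.5 CPM (4 of 8 higher). Ectoderm and ridge markers then summed to 282 to 302 CPM in DMSO and 349 to 411 CPM in C59 (4 of 8 higher, 1 lower), neural crest and Schwann cell markers to 65.4 to 78.9 CPM and 92.5 to 111 CPM (1 of 4 higher), and platelet markers to 18.3 to 21.1 CPM and 22.6 to 32.1 CPM (1 of 4 higher). Muscle progenitor markers were the list that went down at 18 h, from between 207 and 217 CPM to between 140 and 177 CPM, with 4 of 6 lower, each beyond a log2 fold change of 1. At 24 h chondrogenic markers summed to 1541 to 1727 CPM in DMSO and 1911 to 2141 CPM in C59 (4 of 8 higher). Ectoderm and ridge markers summed to 321.5 to 330.3 CPM and 379.2 to 413.5 CPM (3 of 8 higher). Macrophage markers summed to 45.93 to 48.85 CPM and 51.04 to 58.03 CPM (2 of 8 higher). Muscle progenitor markers summed to 238.5 to 265.9 CPM and 184.3 to 214.2 CPM (4 of 6 lower). Endothelial markers summed to 365.2 to 372.7 CPM and 307 to 343.1 CPM (1 of 8 lower). The part of these shifts in the levels of the members was not tested. At 6 h, when *Fst* was lower, the sums of ectoderm, endothelial and macrophage markers overlapped between the arms, although 1 of 8 ectoderm and ridge markers was higher and 3 were lower, down to a log2 fold change of -1.59 for *Fgf8*. Muscle progenitor markers summed to 137 to 152 CPM in DMSO and 168 to 174 CPM in C59 (2 of 6 higher, 1 lower), and neural crest and Schwann cell markers to 29.8 to 35.7 CPM and 39.3 to 51.6 CPM (2 of 4 higher). The chondrogenic markers summed to 883 to 952 CPM in DMSO and 1022 to 1224 CPM in C59 at that time. The mesenchyme markers summed to 2217 to 2319 CPM in DMSO and 1858 to 1958 CPM in C59. Of these 6 mesenchyme genes 1 was higher and 4 were lower, down to a log2 fold change of -1.39. Of 7 erythroid markers 2 were lower at 6 h, with overlapping sums. At 1 h platelet markers summed to 15.05 to 17.04 CPM in DMSO and 24.45 to 25.75 CPM in C59 (2 of 4 higher). Of 7 erythroid markers 4 were higher at 1 h, with overlapping sums.

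The other genes of the pathway were read from a list of 68, of which between 53 and 56 were tested at each time. The test called 1 higher and 2 lower at 1 h, 13 higher and 3 lower at 6 h, 23 higher and 4 lower at 12 h, 5 higher and 1 lower at 18 h, and 5 higher and 3 lower at 24 h. In order of time 5.66%, 29.6%, 49.1%, 10.9% and 14.3% of the genes tested on the list thus passed in either direction. For all genes these shares were 2.75%, 19.6%, 47.5%, 7.08% and 6.44%. At 12 h the share passing in either direction was near that of all genes, but the split between directions differed. At that time 23 of 55 list genes were higher and 4 lower, where 22.0% of all genes were higher and 25.5% lower. At 6 h 13 of 54 list genes were higher and 3 lower, beside 8.20% and 11.4% of all genes. The count of 6 at 18 h ranged from 1 to 17 over the other analyses, and was 2 without DMSO replicate 1 and 12 without C59 replicate 3. Their median log2 fold change was 0.09, 0.20, 0.13 and -0.03 at the last 4 times. At 1 h the matrix gene *Tnc* was higher (log2 fold change 1.31 ± 0.29), and the ligand gene *Gdf11* (-0.40 ± 0.05) and the SMAD corepressor gene *Tgif1* (-0.28 ± 0.05) were lower.

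Of the proteins that store or release latent TGF-beta, 7 of 12 tested genes were higher at 12 h and 0 lower, with a median log2 fold change of 0.53, where 22.0% of all genes were higher and 25.5% lower. *Ltbp3*, a latent TGF-beta binding protein, went from 20.1 CPM in DMSO to 37.3 CPM in C59 (log2 fold change 0.89 ± 0.10). *Itgb8*, an integrin subunit that activates latent TGF-beta, went from 10.9 to 19.5 CPM (0.84 ± 0.14), and *Ltbp1* (0.74 ± 0.13), *Ltbp4* (0.72 ± 0.11), *Thbs1* (0.58 ± 0.10), *Fbn1* (0.49 ± 0.17) and *Furin* (0.30 ± 0.05) were higher as well. At 6 h 5 of 11 had been higher, beside 8.20% of all genes, the largest being *Fbn1* (0.45 ± 0.11). At 18 h *Ltbp4* (0.72 ± 0.11) and at 24 h *Ltbp3* (0.36 ± 0.08) was the member of this group that passed.

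Of 17 target genes tested at 12 h, 8 were higher and 2 lower, or 58.8% in either direction beside 47.5% of all genes. Beyond a log2 fold change of 1 were 2 of them, of which 1 is described here. *Acta2*, smooth muscle actin, went from 19.8 to 55.0 CPM (log2 fold change 1.48 ± 0.23). *Klf10* (0.58 ± 0.07) was higher also at 6 h (0.30 ± 0.07) and 18 h (0.54 ± 0.12), whereas *Snai1* (-0.52 ± 0.10) and *Col3a1* (-0.48 ± 0.08) were lower at 12 h. At 6 h *Col1a1* was the largest increase (0.35 ± 0.07) and *Itgb5* (-0.22 ± 0.05) and *Col3a1* (-0.22 ± 0.05) were lower. At 24 h *Ccn2* was the largest increase (0.68 ± 0.10) and *Col1a1* was lower (-0.66 ± 0.11), having been higher at 12 h (0.51 ± 0.08).

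Of 3 other ligand genes tested at 12 h, *Mstn*, which encodes myostatin, went from 1.60 to 2.67 CPM in DMSO to 3.91 to 7.10 CPM in C59 (log2 fold change 1.34 ± 0.30) and *Gdf11* from a mean of 123 to 153 CPM (0.31 ± 0.06). Both were higher at 6 h too (0.62 ± 0.19 for *Mstn* and 0.19 ± 0.05 for *Gdf11*), and *Gdf11* was higher at 18 h (0.32 ± 0.08) and *Inha*, the inhibin alpha subunit gene, at 24 h (0.45 ± 0.12). *Wfikkn2*, a secreted inhibitor of myostatin and GDF11, was higher at 6 h (0.51 ± 0.10), 12 h (1.19 ± 0.10) and 18 h (0.77 ± 0.09) and lower at 24 h (-0.37 ± 0.08). Among other receptors at 12 h *Acvrl1*, mainly an endothelial receptor, showed the largest increase (0.54 ± 0.09), and *Acvr2b*, an activin type II receptor, was lower (-0.17 ± 0.06). *Acvr1b*, an activin type I receptor, was higher at 6 h (0.17 ± 0.05), and *Acvr2b* was lower at 24 h (-0.41 ± 0.08). Among SMADs and their regulators *Bambi*, a pseudoreceptor that is itself a WNT target, was lower at 6 h (-0.60 ± 0.06), 12 h (-0.82 ± 0.07) and 18 h (-0.50 ± 0.10). *Skil*, a corepressor induced by the pathway, was higher at 6 h (0.28 ± 0.06) and 12 h (0.22 ± 0.05).

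**Figure D4:**
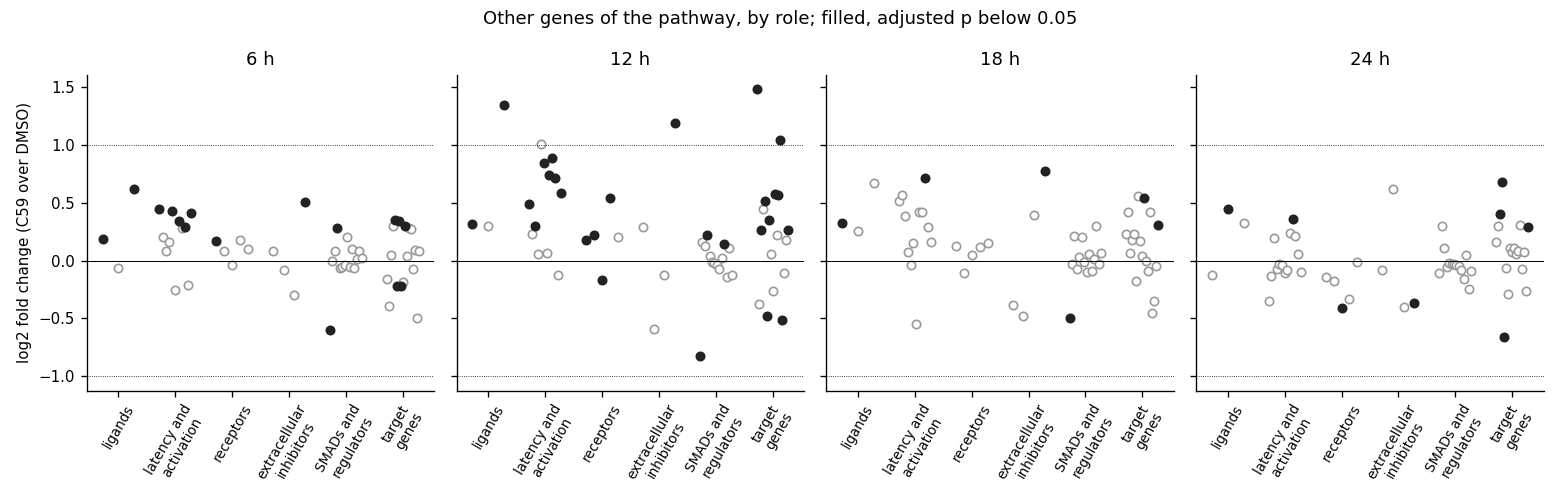
Log2 fold change of C59 over DMSO for the other genes of the pathway at 6, 12, 18 and 24 h, 1 point per gene tested, grouped by role, where filled points passed the edgeR test and dotted lines mark a log2 fold change of 1. At 12 h 7 of 12 latency and activation genes and 8 of 17 target genes lie above 0 as filled points.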

How the data were processed

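Reads of 30 poly(A) libraries of forelimb buds (paired-end) were trimmed by the authors with cutadapt 1.16 and mapped to mm10 with STAR 2.7.0e, per the submitters' notes. The count table was deposited as whole reads per Ensembl gene, and the FPKM table was deposited as made by the authors with Cufflinks 2.2.1, run as unstranded. Whether read counting used strand is not given in the sources used here. *Tgfb2* (124 exonic bases), *Tgfb3* (163 and 257) and *Fst* (115) overlap annotated antisense genes in GENCODE M21, and *Tgfbr3* (297) overlaps a gene on its own strand, so a few of their reads are uncertain.

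Counts of protein-coding autosomal genes were filtered (filterByExpr), scaled by TMM factors and compared by the two-sided quasi-likelihood test of edgeR 4.0.16 (R 4.3.3), each time point on its own 6 libraries and changes of the effect as interactions over 12 libraries, with Benjamini-Hochberg adjustment over all genes tested. A gene passed at adjusted p below 0.05. Errors are SD over libraries (n = 3) or SE of a log2 fold change, and CPM of all 30 libraries share 1 set of TMM factors. The edgeR function was tested on simulated data with the same spread for all genes and no library that stood apart. That test does not cover the spread between the real libraries. Alternatives were DESeq2 1.42.0, limma 3.58.1 on log2(FPKM + 1) and log2(FPKM + 0.1), other scalings, filters and gene sets, a shared spread, a replicate block and leaving out each library. A term for Y-linked transcripts (above 1 FPKM summed) was added after seeing the data.

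The 10 members and the lists of other genes were chosen with earlier results of these data known. Beside the members, the text names pathway genes beyond a log2 fold change of 1, the largest increase and decrease among those that passed in each role group and time, marker genes, and the 3 genes most correlated with each member beyond that fold. Other values of *Ltbp1*, *Ltbp4*, *Itgb8*, *Thbs1*, *Fbn1*, *Furin*, *Klf10*, *Col3a1*, *Col1a1*, *Gdf11* and *Skil* were named after they were seen. Of the overlapping genes none had over 8 reads in a library. A gene that the naming rule selects is not reported here.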

Additional observations from a re-analysis of the deposited data

Results flagged for a closer look

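For 4 members the effect of C59 differed between neighbouring collection times by a test of that difference in edgeR. The log2 fold change of *Inhba* went from 1.73 at 12 h to -1.05 at 18 h, a change of -2.78 ± 0.28 (SE, edgeR adjusted p = 6.09e-05). In *Fst* the effect changed by 1.21 ± 0.28 from 6 h to 12 h (edgeR adjusted p = 0.00605), from -1.18 to 0.03. *Tgfbi* is listed for a pair of changes, a gain of 0.84 ± 0.17 from 6 h to 12 h (edgeR adjusted p = 0.00236) and a loss of -0.45 ± 0.11 from 18 h to 24 h (edgeR adjusted p = 0.0217). For *Tgfbr2* the effect grew by 0.40 ± 0.12 from 6 h to 12 h (edgeR adjusted p = 0.0301). Because sex and treatment cannot be told apart at 6 h, all changes from 6 h to 12 h carry that limit. Tests of adjoining changes share the libraries of the time between them, whereas the pair listed for *Tgfbi* shares none. Across other analyses the changes of *Inhba*, of *Fst* and of *Tgfbi* from 6 h to 12 h were kept in all 22, and those of *Tgfbr2* and of *Tgfbi* from 18 h to 24 h were each lost in 5 of 22, all of which left out 1 library. For *Tgfbr2* these were DMSO replicate 3 and C59 replicates 1 and 3 at 6 h and DMSO replicate 3 and C59 replicate 2 at 12 h (edgeR adjusted p between 0.0545 and 0.0688). For *Tgfbi* they were DMSO replicate 3 at 18 h and, at 24 h, each DMSO library and C59 replicate 2 (edgeR adjusted p between 0.0519 and 0.0696).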

How the results depend on the processing

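No value that passed the test in any analysis changed direction. The number of members called stayed within 1.5 times of the reported one for C59 against DMSO at 1, 6, 12 and 24 h, for development and for the change from 6 h to 12 h, and leaving out 1 library gave 0 to 0, 2 to 4, 4 to 7, 0 to 0, 9 to 10 and 2 to 4 members. At 18 h it was 2 and fell to 1 with limma on log2(FPKM + 1), with limma on log2(FPKM + 0.1), with the replicate block and with the term for Y-linked transcripts, and ranged from 0 to 3 when 1 library was left out. For the change from 12 h to 18 h it was 1 and rose to 2 in DESeq2, with all 30 libraries in the fit and with the Y-linked term, and ranged from 1 to 2 without 1 library. For the change from 18 h to 24 h it was 1 and rose to 3 in DESeq2 and with all 30 libraries in the fit, and ranged from 0 to 2 without 1 library. The cause was not tested, apart from the smaller number of libraries in the last kind.

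With the replicate number as a block, 3, 7, 1 and 0 members passed at 6, 12, 18 and 24 h, *Tgfb1* being gained at 12 h and *Tgfbi* lost at 18 h (edgeR adjusted p = 0.116). The deviations of equally numbered libraries correlated between -0.348 and 0.224 over all times, and between 0.0744 and 0.224 at 12 h. The best match was the own number for all 3 at 12 h, for 1 of 3 at 18 h and 24 h, and for none at the other times. The numbers thus gave no sign of pairs at 1 h and 6 h, and whether they pair the libraries at 12 h was not tested. A term for Y-linked transcripts could not be fitted at 6 h, where it coincides with treatment. Over the members and the comparisons of C59 with DMSO, 723 of the alternative values kept their side of the threshold, 23 lost a call and 11 gained one. The number of other pathway genes called ranged from 2 to 5 at 1 h, 9 to 18 at 6 h, 21 to 33 at 12 h, 1 to 17 at 18 h and 3 to 13 at 24 h. Depth limited *Inhba* and *Inhbb* at 1 h and *Inhbb* throughout.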
